A study of Homo sapiens with 24 samples.

Results

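The 10 keratin genes KRT5, KRT6A, KRT7, KRT8, KRT17, KRT18, KRT19, KRT23, KRT80 and KRT81 were examined among the 28277 genes of each count table. The genes were taken by symbol from a list drawn up with earlier results of these data known, and all 10 were found in both tables. The filter on low counts kept 9 of the 10, and KRT23 did not pass it. The lowest count of any of the other 9 in any library was 54, so none of them entered the tests through a single group in which it was high.

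Expression was measured by RNA-seq in PEO1 and PEO4, a pair of established human ovarian adenocarcinoma lines of the same origin, PEO1 being drug-sensitive and PEO4 drug-resistant. The pair labelled A was untreated and compared wild-type PEO1 (PEO1 A), which lacks functional BRCA2, with wild-type PEO4 (PEO4 A), in which BRCA2 is functional. In the pair labelled B, PEO1 carried reinstated BRCA2 (PEO1 B, genotype BRCA2+) and PEO4 was wild-type (PEO4 B), so all cells of that pair had functional BRCA2. PEO1 B and PEO4 B were either untreated or kept for 2 or 6 hours in medium with 5 µM pyridostatin (PDS), a small molecule that binds G-quadruplexes (G4s), the stacked structures that guanine-rich DNA can fold into. Each of the 8 groups had 3 biological replicates, which gave 24 libraries. Each group is 1 cell line in culture, so the spread between replicates does not cover differences between tumours.

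Keratins are the intermediate filament proteins of epithelial cells. A filament is built from pairs of 1 type I (acidic) and 1 type II (basic or neutral) chain, and epithelia are told apart by the pairs they make. KRT8 (type II) and KRT18 (type I) are the primary pair of simple epithelia, accompanied by KRT7 (type II) and KRT19 (type I) in ducts and in the lining of the female genital tract, and most ovarian carcinomas carry this set. KRT5 (type II) marks the basal layer of stratified epithelia, and KRT6A (type II) and KRT17 (type I) are induced in epidermis by wounding and stress. KRT80 (type II) lies near desmosomes, KRT81 (type II) is a hair keratin, and KRT23 is a type I epithelial keratin. Of the 10 genes, 6 encode type II and 4 type I chains.

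The 6 type II members and KRT18 lie together on chromosome 12 and the other 3 type I members on chromosome 17 (GRCh38, GENCODE release 44 canonical transcripts). KRT5 spans chr12:52514575-52520394 on the minus strand in 9 exons, and KRT6A, chr12:52487176-52493257 on the same strand, lies next to it in the cluster. KRT81 (chr12:52285913-52291534, minus) lies wholly inside the span of KRT86, another hair keratin, and KRT17 spans chr17:41619442-41624575 on the minus strand in 8 exons. Near-identical and overlapping neighbours could share reads with some members, and the strand setting of the counting is not given in the sources used here. Of the stretches of 150 bases in each canonical transcript, the length of a read, 25.62% of those of KRT81 were also found in a KRT86 transcript, 12.26% of those of KRT18 in a KRT8 transcript, 9.26% of those of KRT6A in KRT6C and 5.56% in KRT6B, and 5.22% of those of KRT7 in its antisense RNA KRT7-AS. KRT5, KRT8, KRT17, KRT19, KRT23 and KRT80 shared none on their canonical transcripts. Counts of KRT81, KRT18, KRT6A and KRT7 are therefore less certain than the others.

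The sequence table from RefSeq (GRCh38.p14) held the region before the start of 2 of the 10 members, KRT5 and KRT8. The 250 bases before the start of KRT5 (chr12:52520395-52520644, minus strand) are shown because KRT5 gave the largest response to PDS among the members. The capitals mark CAGGTG, an E-box sequence, the only hit among the motifs searched on both strands.
KRT5 upstream: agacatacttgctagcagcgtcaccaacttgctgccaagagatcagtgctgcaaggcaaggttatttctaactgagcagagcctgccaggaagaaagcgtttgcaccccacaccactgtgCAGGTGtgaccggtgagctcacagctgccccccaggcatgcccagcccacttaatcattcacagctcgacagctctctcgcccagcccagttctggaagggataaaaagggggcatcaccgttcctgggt
CAGGTG occurred on either strand in 17.49% of the 35116 upstream windows of the table. TATAAA (10.72% of windows), TGANTCA (6.57%), GGGCGG (42.64%) and the G4 motif (23.45%), defined as 4 runs of at least 3 G with loops of 1 to 7 bases, were not in these letters. The KRT8 window held none of the 5 motifs, and it lies before a start far upstream of the canonical transcript.

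Library totals lay between 18699929 and 63882077 counts, and each member's level is given in CPM, the count relative to the library total after TMM scaling, within its own table. Untreated and PDS-treated libraries of the B pair differed in depth (18699929 to 22375644 counts against 33260167 to 43713947) and in the share of ribosomal RNA (0.217 to 0.4735% against 0.01635 to 0.0369%), so this difference between libraries and the treatment cannot be told apart. The labels describe the library kit for the A pair alone. In bulk RNA, fewer cells of a kind and less RNA per cell cannot be told apart. Epithelial markers were present in all groups, with EPCAM at 311.8 to 570.7 CPM and CDH1 at 100 to 192.4 CPM as group means and PAX8 and WT1 also expressed, and of the 8 listed markers of ovarian carcinoma SOX17 was at or near 0 and MUC1 at most 1.76 CPM in any library. Of the leukocyte markers, PTPRC reached at most 0.0418 CPM in any library and CD3E was at 0 in all.

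The 10 keratins together took 1.04% ± 0.0151 of all counts in PEO1 A (SD, n = 3) and 0.492% ± 0.0629 in PEO4 A. In the B pair their share was 1.47% ± 0.0249 in untreated PEO1 B and 0.755% ± 0.133 in untreated PEO4 B, and no library of PEO4 reached the lowest of PEO1 in either pair. Per transcript length (CPM per kilobase), KRT8, KRT18, KRT7 and KRT19 made up most of the summed signal of the members in each group. Beside them KRT81 held 25.0% ± 0.281 of the sum in PEO1 A, the largest share there, but 0.798% ± 0.0582 in PEO4 A. KRT19 held 52.1% ± 3.19 in PEO4 A and 18.9% ± 0.356 in PEO1 A. In untreated PEO4 B the pair KRT8 and KRT18 led, at 37.4% ± 1.10 and 25.98% ± 1.49.

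**Figure D1:**
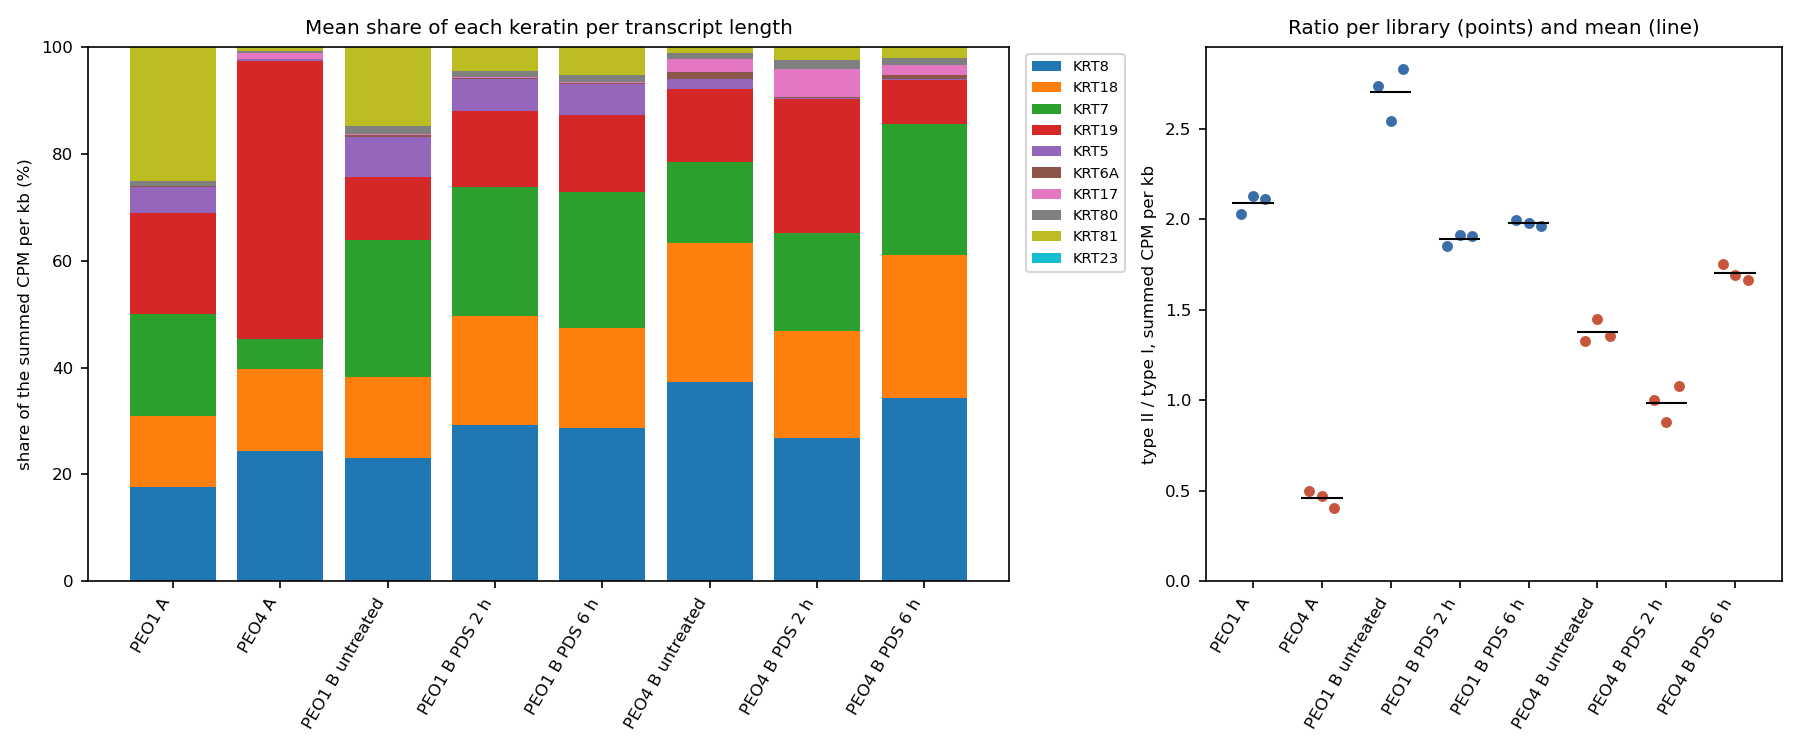
The left panel stacks the mean share (%) of each of the 10 keratins in their summed CPM per kilobase for the 8 groups, and the right panel plots the ratio of summed type II to summed type I members per kilobase, with points for libraries, lines for means, PEO1 in blue and PEO4 in red. The KRT81 share is wide in PEO1 A and narrow in PEO4 A, and the ratio is lowest in PEO4 A, at 0.406 to 0.501.

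The balance of the filament types among the members, as mRNA per kilobase, also differed between the lines. Keratins that are not members were left out of the sums, among them the type II keratin KRT4. Its mean was 365.1 CPM per kilobase in PEO4 A and 50.07 in PEO1 A. In the untreated B pair it was 250.4 in PEO4 B and 78.63 in PEO1 B. The ratios therefore do not describe all keratins of these cells. The summed type II members were 2.09 ± 0.0540 times the summed type I members in PEO1 A (SD, n = 3) and 0.459 ± 0.0480 times in PEO4 A. In the B pair the ratio was 2.70 ± 0.148 in PEO1 B and 1.38 ± 0.0627 in PEO4 B untreated. The ratio of KRT8 to KRT18 alone moved far less, with group means between 1.28 and 1.58 over all 8 groups. KRT7 against KRT19 ranged from 0.109 ± 0.0169 in PEO4 A to 2.97 ± 0.191 in PEO4 B after 6 h of PDS.

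**Figure D2:**
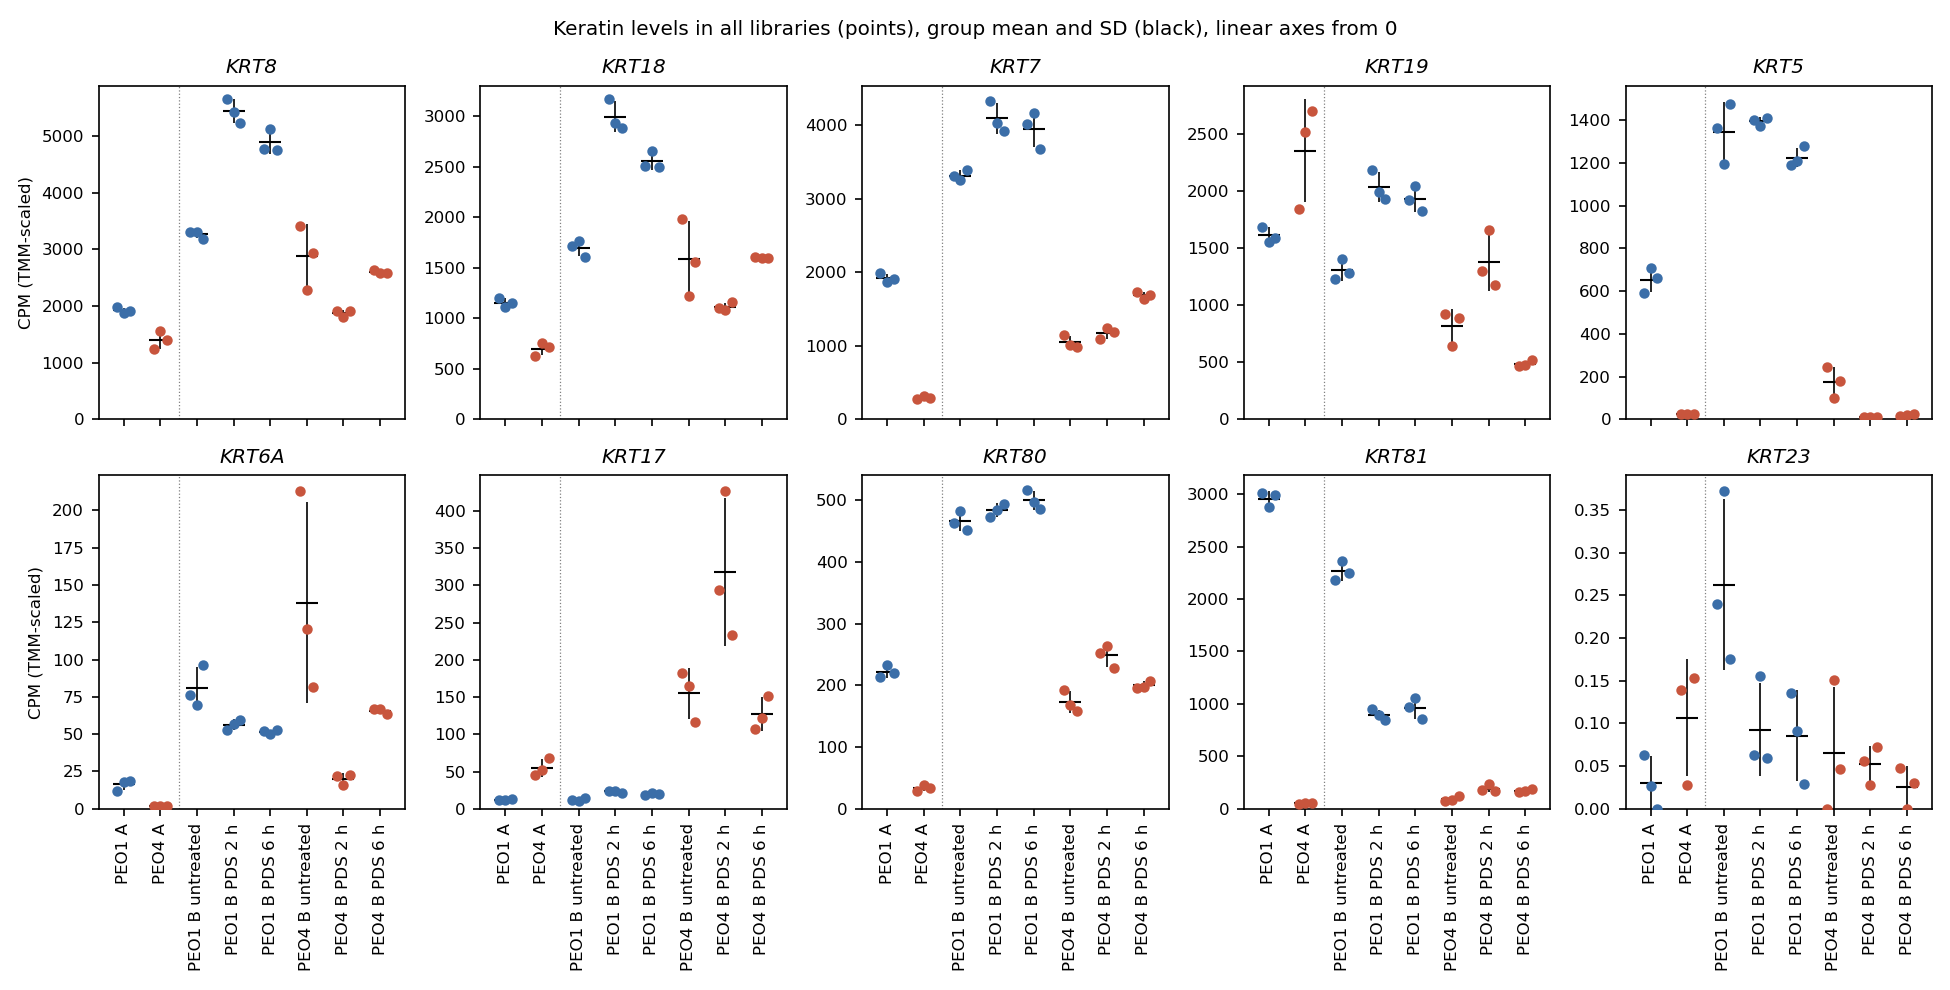
Each panel plots 1 keratin in CPM (TMM-scaled, linear axis from 0) for the 8 groups, with a point for each library, a black line for the mean and a bar for the SD, PEO1 in blue and PEO4 in red, and a dotted line between the separately scaled tables. KRT5 and KRT81 are high in the PEO1 groups and low in the PEO4 groups, and KRT17 has the reverse order within each pair.

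The first comparison asked which keratins differed between untreated PEO4 and PEO1. In the A pair KRT81, KRT5, KRT6A, KRT80 and KRT7 were lower in PEO4 A and KRT17 was higher, which made 6 of the 9 tested members called (adjusted p under 0.05 and absolute log2 fold change over 1, edgeR's quasi-likelihood test, Benjamini-Hochberg over all genes), beside 25.8% of all genes tested. By direction, 1 was higher, beside 12.6% of all genes, and 5 were lower, beside 13.1%. By adjusted p alone 9 of 9 passed, beside 61.6% of all genes, and the libraries of the lines did not overlap for 9 members, beside 67.9%. The median log2 fold change was -2.71 over the 9 members and -0.0061 over all genes. In untreated PEO4 B against PEO1 B, 5 of 9 were called, beside 24.8% of all genes, with KRT17 again higher and KRT5, KRT7, KRT80 and KRT81 lower (12.2% of all genes were called higher and 12.6% lower). By adjusted p alone 7 passed, beside 68.6%, and 6 did not overlap, beside 68.5%. The median there was -0.68, beside -0.0011 over all genes.

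KRT81 showed the widest gap between the lines. PEO1 A libraries held 3007, 2876 and 2991 CPM and PEO4 A libraries 40.7, 58.2 and 50.8 CPM. All PEO1 A libraries were therefore far above all PEO4 A libraries, a 59.4-fold difference (log2 fold change -5.89, SE 0.14, adjusted p = 1.05e-11). In the B pair untreated PEO1 B held 2182, 2362 and 2246 CPM and PEO4 B 73.4, 87.8 and 117.8 CPM, a log2 fold change of -4.61 (SE 0.17, adjusted p = 5.843e-12). KRT86, whose span covers KRT81, stood at 29.2 ± 1.72 CPM in PEO1 A and 0.737 ± 0.0025 CPM in PEO4 A (SD, n = 3).

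KRT5, the basal type II keratin, was also lower in PEO4. It measured 593, 706.8 and 662.8 CPM in PEO1 A and 24.7, 23.1 and 23.1 CPM in PEO4 A (log2 fold change -4.79, SE 0.10, adjusted p = 2.333e-12). Untreated PEO1 B gave 1364, 1195 and 1476 CPM and untreated PEO4 B 243.3, 101.2 and 178.6 CPM (log2 fold change -2.95, SE 0.24, adjusted p = 1.14e-07). The lines did not overlap in either pair, and PEO4 B libraries spread widely around their mean of 174.4 CPM.

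KRT6A and KRT17, the keratins of stressed epidermis, did not share 1 pattern. KRT17 was higher in PEO4, with 45.4, 52.0 and 68.8 CPM in PEO4 A against 11.2, 11.3 and 12.7 CPM in PEO1 A (log2 fold change 2.24, SE 0.14, adjusted p = 1.075e-07). In the B pair it reached 182.8, 165.5 and 117 CPM in PEO4 B against 11.2, 10.6 and 15.1 CPM in PEO1 B, 12.6-fold (log2 fold change 3.66, SE 0.26, adjusted p = 3.26e-08). KRT6A was lower in PEO4 A, at 1.76, 1.99 and 1.65 CPM against 12.1, 18.04 and 18.7 CPM in PEO1 A (log2 fold change -3.18, SE 0.19, adjusted p = 2.725e-08). In the B pair its groups overlapped, with 212.9, 120.2 and 81.4 CPM in PEO4 B and 76, 69.6 and 96.5 CPM in PEO1 B, and the log2 fold change of 0.78 (SE 0.26, adjusted p = 0.01897) stayed under the fold that a call asks for. Without the third PEO4 B untreated library it was 1.05 and called. The tables were scaled and fitted separately, and the difference between the A and B results was not tested.

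The simple-epithelial keratins differed less, apart from KRT7. KRT7 held 1987, 1863 and 1906 CPM in PEO1 A and 273.9, 310.9 and 295.4 CPM in PEO4 A (log2 fold change -2.71, SE 0.09, adjusted p = 1.132e-10), and 3301, 3247 and 3392 against 1140, 1015 and 983.7 CPM in the B pair (log2 fold change -1.66, SE 0.07, adjusted p = 6.428e-17). KRT8 and KRT18 were not called in either pair. KRT8 gave log2 fold changes of -0.46 (SE 0.10, adjusted p = 0.001314) in the A pair and -0.19 (SE 0.09, adjusted p = 0.06804) in the B pair. KRT18 gave -0.72 (SE 0.09, adjusted p = 1.658e-05) and -0.09 (SE 0.11, adjusted p = 0.4618). KRT19 had opposite signs in the pairs, 0.55 (SE 0.13, adjusted p = 0.002597) in A and -0.68 (SE 0.13, adjusted p = 0.0002704) in B, both under the fold that a call asks for. KRT80 was lower in PEO4 in both pairs, at 29.3 to 37.8 CPM against 212.8 to 233.3 CPM in A and 158.6 to 193 CPM against 452.3 to 481.9 CPM in B (log2 fold changes -2.73 and -1.43, adjusted p = 2.308e-10 and 9.608e-16).

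**Figure D3:**
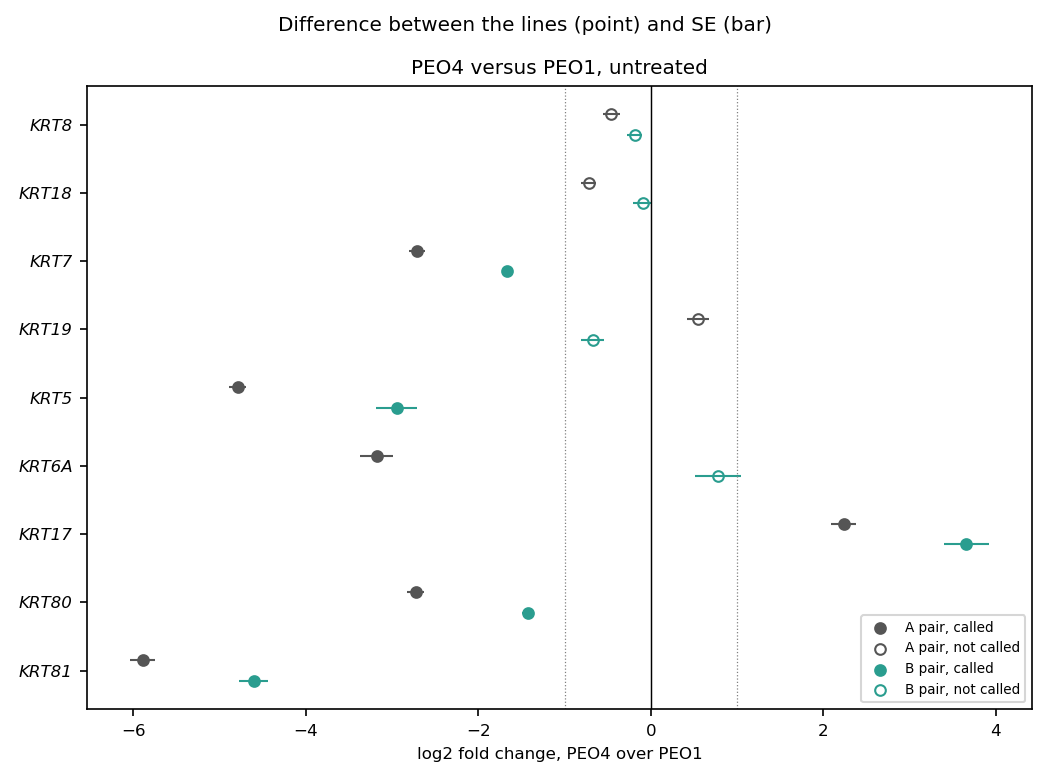
The points are log2 fold changes of PEO4 over PEO1 in untreated cells for the 9 tested keratins (x axis, with genes on the y axis), grey for the A pair and green for the B pair, with bars for the SE, filled points for called genes and dotted lines at 1 and -1. KRT81, KRT5, KRT7 and KRT80 lie left of the dotted line in both pairs and KRT17 lies right of it, whereas KRT6A lies left of it in the A pair alone.

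PDS was then compared with no treatment in each B line. The 2 h and 6 h comparisons of a line share its 3 untreated libraries and are not independent. In PEO1 B, KRT81 was the 1 member called at 2 h, of 9 tested, beside 7.57% of all genes (6.39% lower), and again at 6 h, beside 8.13% (6.83% lower). KRT81 fell from 2182, 2362 and 2246 CPM to 946.8, 892.6 and 850.7 CPM at 2 h and 969.5, 1055 and 854.1 CPM at 6 h. Every treated library was under every untreated one (log2 fold changes -1.34, SE 0.15, adjusted p = 4.006e-06, and -1.24, SE 0.15, adjusted p = 7.804e-06). The median of the 9 members was 0.30 at 2 h and 0.25 at 6 h, beside -0.025 and -0.027 over all genes.

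The simple-epithelial set was higher in treated PEO1 B by less than the fold that a call asks for. At 2 h KRT8 measured 5657, 5422 and 5234 CPM against 3305, 3307 and 3184 CPM untreated, and KRT18 3173, 2932 and 2881 CPM against 1719, 1762 and 1605 CPM. The treated libraries lay above the untreated ones for both genes, and the log2 fold changes were 0.74 (SE 0.09, adjusted p = 4.769e-07) and 0.82 (SE 0.11, adjusted p = 6.002e-06). KRT19 had 0.64 (SE 0.13, adjusted p = 0.0007128) and KRT7 0.30 (SE 0.06, adjusted p = 0.0003385). KRT17, at 24.4, 23.9 and 21.3 CPM against 11.2, 10.6 and 15.1 CPM untreated, had 0.92 (SE 0.27, adjusted p = 0.01157), and it reached 1.10 and was called without the third untreated PEO1 B library, which made 2 members called. By adjusted p alone, 6 of 9 members passed at 2 h and 5 at 6 h, beside 52.6% and 53% of all genes. Treated and untreated libraries did not overlap for 7 members at 2 h and 8 at 6 h, beside 61.8% of all genes at 2 h and 61.8% at 6 h. KRT5 (0.05, SE 0.22), KRT80 (0.06, SE 0.06) and KRT6A (-0.52, SE 0.27) did not pass the adjusted p at 2 h, and KRT5 and KRT80 changed sign under library totals.

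Between 6 h and 2 h of PDS in PEO1 B, 0 of 9 members were called by edgeR's quasi-likelihood test, beside 0.17% of all genes (0.0705% higher), and 0 passed the adjusted p alone, beside 6.94%. The libraries of the times did not overlap for 4 members, all lower at 6 h, beside 31.3%. At an unadjusted p under 0.05 it was 1 of 9, and the DESeq2 Wald test also called 0. The median log2 fold change was -0.13 over the members and 0.0004 over all genes, and the widest was KRT17 at -0.24 (SE 0.25).

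In PEO4 B KRT5 and KRT6A moved most at both times. At 2 h 4 of 9 members were called, beside 17.4% of all genes: KRT5 and KRT6A fell, beside 11% of genes called lower, and KRT17 and KRT81 rose, beside 6.4% called higher. At 6 h KRT5 and KRT6A were called lower, 2 of 9 beside 22.6% of all genes (16.3% lower and 6.26% higher). Over the 9 members the median was 0.16 at 2 h and -0.15 at 6 h, beside 0 and -0.028 over all genes.

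KRT5 had the largest response among the members. Untreated PEO4 B libraries held 243.3, 101.2 and 178.6 CPM, the 2 h libraries 9.92, 11.9 and 10.4 CPM and the 6 h libraries 17.8, 21.4 and 24.9 CPM. Each treated library was under each untreated one, and the 2 h libraries were also under those of 6 h. The 2 h level was 16.3-fold lower than untreated (log2 fold change -4.02, SE 0.27, adjusted p = 1.961e-08) and the 6 h level 8.20-fold lower (log2 fold change -3.04, SE 0.25, adjusted p = 1.369e-07). From 2 to 6 h KRT5 was higher by 0.99 on the log2 scale (SE 0.26, adjusted p = 0.005837), just under the fold that a call asks for, and was called without the second 2 h library (1.07) or the first 6 h library (1.11).

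KRT6A followed the same order of times. It held 212.9, 120.2 and 81.4 CPM untreated, 21.9, 15.9 and 22.7 CPM at 2 h and 66.9, 67.0 and 63.4 CPM at 6 h, with no overlap between the 3 groups. It fell 6.85-fold at 2 h (log2 fold change -2.78, SE 0.28, adjusted p = 1.712e-06) and 2.10-fold at 6 h (-1.07, SE 0.26, adjusted p = 0.002663), and rose 3.25-fold from 2 to 6 h (1.70, SE 0.28, adjusted p = 0.0001607). The 6 h call rests on the first untreated PEO4 B library, the highest of the 3: without it the log2 fold change was -0.61. With only the compared groups fitted it was -1.09 and missed the adjusted p (0.0529). The near-identical KRT6B moved the other way at 2 h, from 5.96 ± 2.81 to 22.1 ± 3.26 CPM (SD, n = 3), and KRT6C fell from 4.67 ± 3.63 to 0.470 ± 0.187 CPM (log2 fold changes 1.88 and -3.32, adjusted p = 3.205e-06 and 1.538e-05).

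KRT17 rose and then fell back. PEO4 B libraries had 182.8, 165.5 and 117 CPM untreated, 293.3, 426.9 and 232.9 CPM at 2 h and 107.5, 122.1 and 152 CPM at 6 h. The 2 h libraries stood above all others, and those of 6 h overlapped the untreated ones. The rise at 2 h was 1.03 on the log2 scale (SE 0.22, adjusted p = 0.0009827), and the fall from 2 to 6 h was -1.32 (SE 0.22, adjusted p = 0.0001646). KRT81 rose in PEO4 B, from 73.4, 87.8 and 117.8 CPM to 177.6, 232.9 and 168.1 CPM at 2 h (log2 fold change 1.05, SE 0.15, adjusted p = 2.938e-05), and at 6 h it held 164, 169.4 and 188.1 CPM (0.90, SE 0.15, adjusted p = 0.000104, under the fold for a call). Both rises at 2 h lay just over the fold that a call asks for and were not called under library totals or upper-quartile scaling, under which 2 members were called, nor without the second PEO4 B 2 h library, which also left 2. KRT17 (0.87) also lost its call without the third untreated PEO4 B library and KRT81 (0.91) without the first, while at 6 h KRT81 was called without the third (1.11).

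Among the simple-epithelial keratins of PEO4 B, KRT19 followed KRT17 in order of times. It measured 921.6, 645.6 and 887.6 CPM untreated, 1304, 1663 and 1174 CPM at 2 h and 468, 472.5 and 516.9 CPM at 6 h. The groups did not overlap, and the fall from 2 to 6 h, 2.84-fold, was called (log2 fold change -1.51, SE 0.13, adjusted p = 1.209e-07), whereas 0.75 at 2 h (SE 0.13, adjusted p = 0.0001087) and -0.75 at 6 h (SE 0.13, adjusted p = 9.533e-05) were under the fold. In all, 3 of 9 members were called between 6 and 2 h, beside 12% of all genes, with KRT6A higher (2.27% of genes were called higher) and KRT17 and KRT19 lower (9.71% lower). By adjusted p alone 8 passed, beside 60.1%, and 8 did not overlap, beside 68%. The median there was 0.47 over the members and -0.021 over all genes.

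KRT8 and KRT18 had their lowest levels in PEO4 B at 2 h. KRT8 measured 3414, 2273 and 2927 CPM untreated, 1902, 1813 and 1915 CPM at 2 h and 2630, 2581 and 2580 CPM at 6 h, and KRT18 1982, 1225 and 1560, then 1099, 1083 and 1162, then 1610, 1599 and 1601 CPM. The 2 h libraries lay under all others for both genes, and the 6 h libraries overlapped the untreated ones. The 2 h log2 fold changes were -0.61 (SE 0.09, adjusted p = 2.75e-06) and -0.51 (SE 0.11, adjusted p = 0.0004771), under the fold for a call. KRT7 was at 1140, 1015 and 983.7 CPM untreated, 1093, 1235 and 1183 CPM at 2 h and 1733, 1636 and 1684 CPM at 6 h, the 6 h libraries standing above the rest (log2 fold change 0.69, SE 0.07, adjusted p = 1.088e-09). KRT80 gave 0.52 at 2 h (SE 0.06, adjusted p = 1.581e-07) and 0.21 at 6 h (SE 0.06, adjusted p = 0.006691). By adjusted p alone, 9 of 9 members passed at 2 h and 6 at 6 h, beside 65.3% and 69.8% of all genes. Treated and untreated libraries did not overlap for 8 members at 2 h, beside 64.2%, and 6 at 6 h, beside 72.2%.

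**Figure D4:**
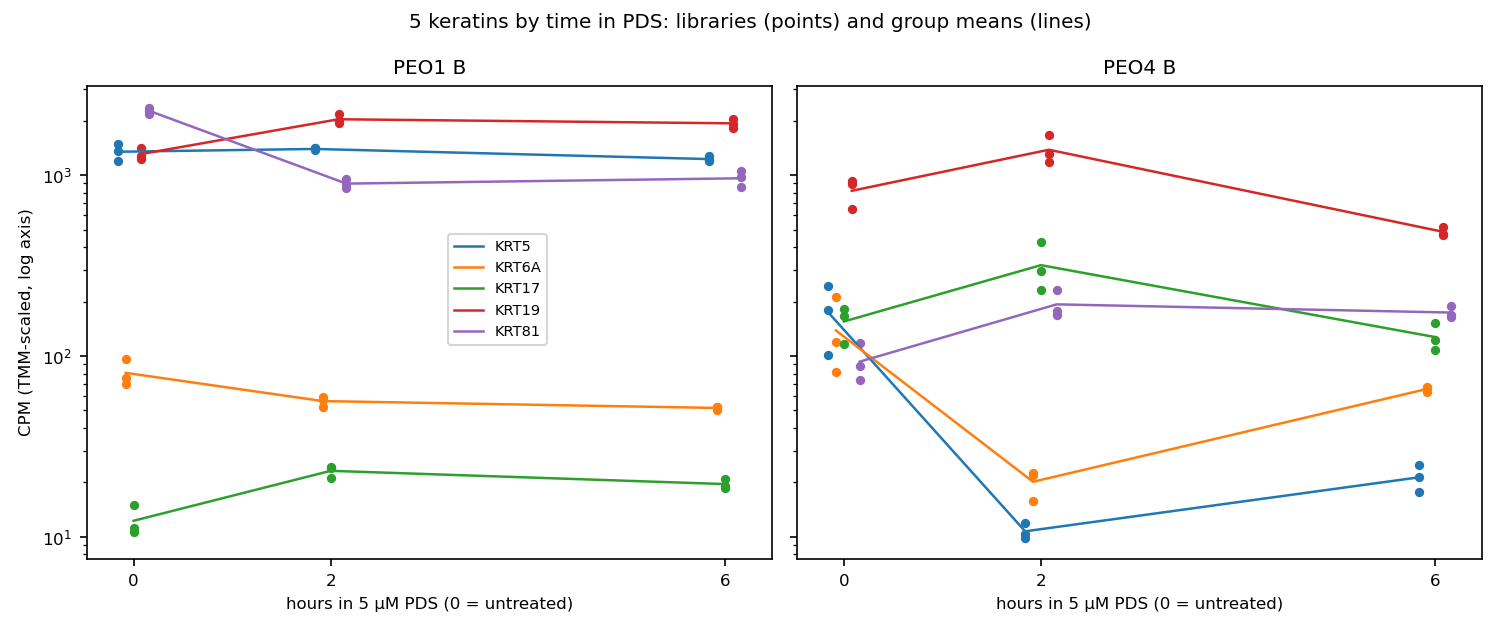
The level of 5 keratins is plotted in CPM (log axis) against hours in 5 µM PDS, with 0 for untreated cells, points for libraries and lines through the group means, for PEO1 B on the left and PEO4 B on the right. In PEO4 B, KRT5 drops from 101.2 to 243.3 CPM to 9.92 to 11.9 CPM at 2 h and KRT6A has its lowest level at the same time, while in PEO1 B KRT5 stays between 1190 and 1476 CPM and KRT81 falls.

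The responses of the lines were compared by the interaction, the log2 response of PEO4 B minus that of PEO1 B. At 2 h 5 of 9 members differed, beside 11% of all genes. KRT5 (-4.08, SE 0.34, adjusted p = 1.003e-06), KRT6A (-2.26, SE 0.38, adjusted p = 0.0005068), KRT8 (-1.35, SE 0.13, adjusted p = 2.543e-08) and KRT18 (-1.33, SE 0.15, adjusted p = 2.497e-06) had the lower response in PEO4 B, beside 4.92% of genes, and KRT81 the higher (2.39, SE 0.21, adjusted p = 9.101e-07), beside 6.1%. KRT8 and KRT18 thus differed between the lines though neither was called within a line. At 6 h 3 of 9 differed, beside 14.8% of all genes: KRT5 (-2.90, SE 0.33, adjusted p = 1.139e-05) and KRT19 (-1.32, SE 0.18, adjusted p = 3.11e-05) were lower, beside 9.34%, and KRT81 was higher (2.14, SE 0.21, adjusted p = 1.874e-06), beside 5.42%. KRT17 at 6 h (-0.96, SE 0.35, adjusted p = 0.03721) was under the fold for a call and was called without the third untreated PEO1 B (-1.14), the third untreated PEO4 B (-1.13) or the third PEO4 B 6 h library (-1.11). By adjusted p alone 6 of 9 differed at 2 h and 7 at 6 h, beside 37.3% and 47.4% of all genes. The median interaction over the members was -0.14 at 2 h and -0.58 at 6 h, beside 0.015 and 0.0055 over all genes.

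KRT7 and KRT17 did not differ detectably in response at 2 h, with interactions of -0.14 (SE 0.09, adjusted p = 0.2338) and 0.12 (SE 0.35, adjusted p = 0.8251), and neither did KRT19 (0.12, SE 0.18, adjusted p = 0.6591). For KRT81 the lines moved in opposite directions, yet the ranges stayed apart, with 850.7 to 1055 CPM in treated PEO1 B and 164 to 232.9 CPM in treated PEO4 B. KRT86 held more reads after PDS in both lines. It went from 6.96 ± 1.03 to 11.9 ± 0.882 CPM at 2 h in PEO1 B (SD, n = 3; log2 fold change 0.78, under the fold for a call) and from 0.948 ± 0.117 to 3.71 ± 0.966 CPM in PEO4 B (called, 1.9604). The part of reads shared between KRT81 and KRT86 in these values was not tested.

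**Figure D5:**
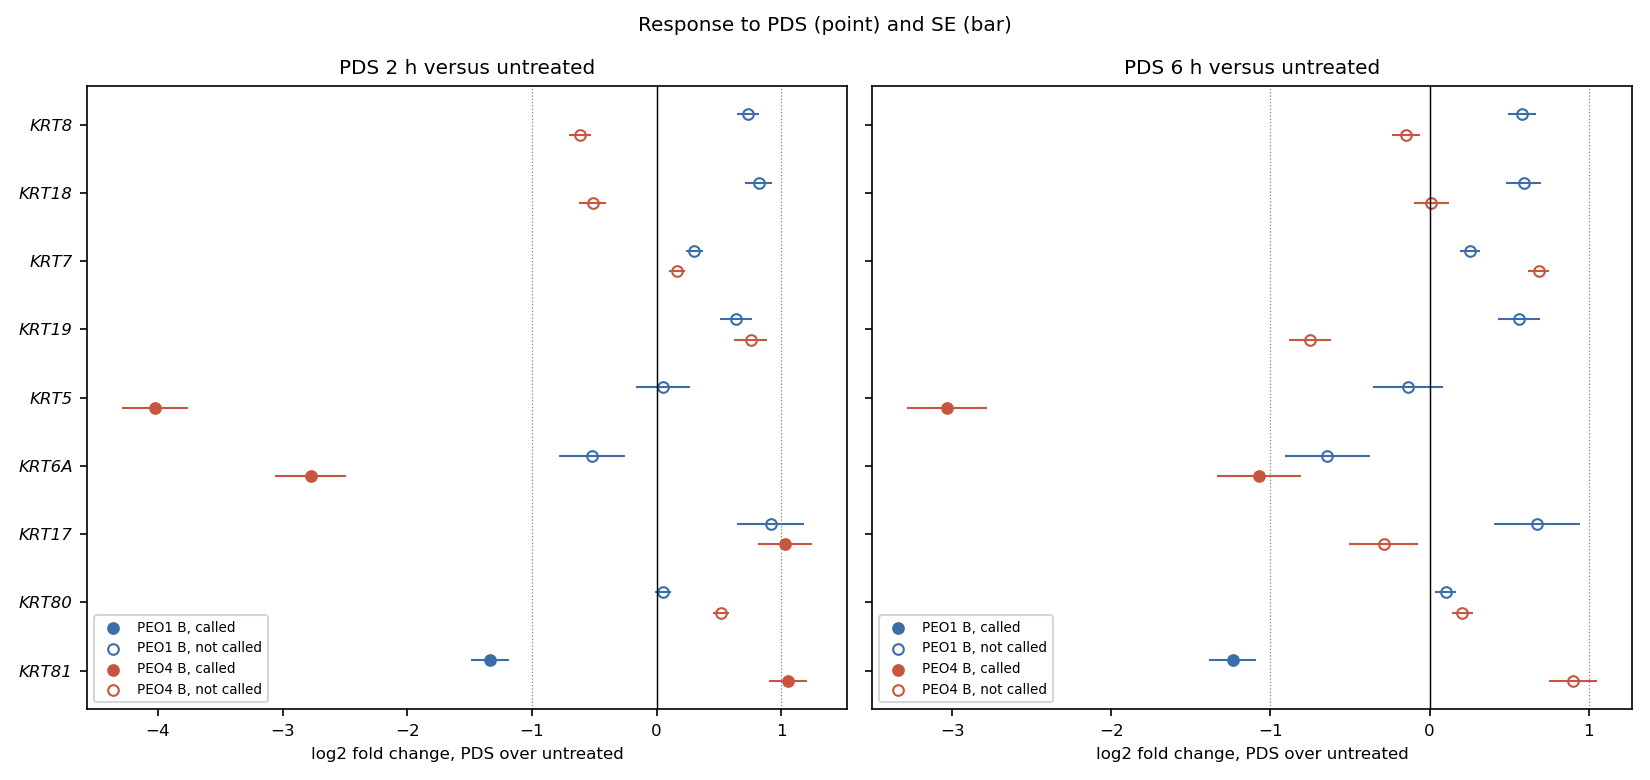
The points are log2 fold changes of PDS over untreated cells (x axis) for the 9 tested keratins at 2 h (left) and 6 h (right), PEO1 B in blue and PEO4 B in red, with bars for the SE, filled points for called genes and dotted lines at 1 and -1. KRT5 and KRT6A lie far left in PEO4 B at 2 h, KRT81 lies on opposite sides of 0 in the lines, and KRT8 and KRT18 lie right of 0 in PEO1 B and left of it in PEO4 B at 2 h.

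The order of the 6 groups of the B pair differed from keratin to keratin. KRT5 ran from PEO1 B at 2 h (1394 ± 19.6 CPM, SD, n = 3) over untreated (1345 ± 141.3) to 6 h (1225 ± 45.6), neighbours that overlapped, and on to untreated PEO4 B (174.4 ± 71.1), 6 h (21.4 ± 3.55) and 2 h (10.7 ± 1.05), each apart from the next. KRT7 and KRT80 had all PEO1 B groups above all PEO4 B groups. KRT17 had all PEO4 B groups above all PEO1 B groups, with untreated PEO4 B and PEO4 B at 6 h overlapping. For KRT8 and KRT18 treated PEO1 B stood above the rest, and the untreated groups of the lines overlapped for both genes. KRT6A was highest in untreated PEO4 B (138.2 ± 67.6 CPM), which overlapped untreated PEO1 B (80.7 ± 14.0 CPM), and lowest in PEO4 B at 2 h (20.2 ± 3.73 CPM).

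KRT23 was near 0 in all groups. Its counts ran from 0 to 9 per library, with group means from 0.0259 to 0.262 CPM, and it was not tested. A count of 0 was seen in 3 libraries. There 3 counts, taken as an approximate upper limit on the expected count when 0 is seen, would be 0.0567 to 0.137 CPM. These limits cover counting error only, and so few counts do not order the groups.

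Other keratins were taken from a list of 44, of which 11 were tested in the A pair and 17 in the B pair. Between untreated lines 1 was higher and 8 lower in PEO4 A, beside 12.6% and 13.1% of all genes, and 3 were higher and 8 lower in PEO4 B, beside 12.2% and 12.6%. The highest log2 fold change in the A pair was that of KRT4, a keratin of inner stratified linings (781.7 against 107.2 CPM, 2.87, adjusted p = 1.611e-10), and in the B pair KRT13, its type I partner (44.6 against 6.39 CPM, 2.80, adjusted p = 0.0001978), and KRT4 (1.67) were highest. Among those lower were the hair keratins KRT86 in A (-5.31), KRT32 in both pairs and KRT83 in B. KRT32 and KRT83 were near 0 counts in PEO4 and passed the filter through PEO1, so no fold is given. KRT32 had 0 to 1 counts per library in PEO4 A against 14 to 49 in PEO1 A and 1 to 2 against 11 to 21 in the B pair, and KRT83 had 0 to 6 against 25 to 44 in the B pair. KRT6B likewise passed through PEO1 in the A pair, with 0 to 6 counts per library in PEO4 A against 58 to 154 in PEO1 A. Genes that passed through PEO1 alone could hardly be called other than lower, and the counts and medians given here include them. The medians were -2.46 and -0.66, beside -0.0061 and -0.0011 over all genes.

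After PDS, 1 of the 17 rose and 1 fell in PEO1 B at 2 h (1.18% and 6.39% of all genes), and 1 rose and 2 fell at 6 h (1.29% and 6.83%). KRT9 was higher (1.51 and 1.48), from 11 to 16 counts per untreated library to 55 to 67 at 2 h and 53 to 73 at 6 h. KRT6C was lower at 6 h (-1.30, adjusted p = 0.04178 in edgeR's test), at 17 to 32 counts per library against 31 to 48 untreated. KRT85 was lower at 3 to 13 and 9 to 11 counts per library against 16 to 20 untreated. The treated libraries were of greater depth. In PEO4 B 5 rose and 7 fell at 2 h, beside 6.4% and 11% of all genes, and 3 rose and 9 fell at 6 h, beside 6.26% and 16.3%. All genes were thus also called more often in PEO4 B, and the difference between the lines in these counts was not tested. The list had median log2 fold changes of -0.78 and -1.39 beside 0 and -0.028 over all genes. Among them KRT86 rose at 2 h (1.9604) and 6 h (1.44), KRT78 (-3.38) and KRT6C (-3.32) fell at 2 h, and KRT13 (-5.17) and KRT78 (-3.87) fell at 6 h. KRT78 had only 27 to 184 counts per untreated library, 9 to 22 at 2 h and 6 to 14 at 6 h. KRT6C had 46 to 204 untreated and 10 to 23 at 2 h. KRT32 was called higher at 2 h from 1 to 2 counts per untreated library to 8 to 25, and KRT83 at 6 h from 0 to 6 to 13 to 21. KRT13 went from 44.6 ± 27.7 CPM untreated to 11.8 ± 5.93 CPM at 2 h and 1.23 ± 0.254 CPM at 6 h (SD, n = 3). Between 6 and 2 h 4 fell and 0 rose, beside 9.71% and 2.27% of all genes, led by KRT13 (-3.23) and KRT15 (-2.94), a basal type I keratin. The interaction was called for 2 higher and 6 lower at 2 h, beside 6.1% and 4.92% of all genes, with KRT6B (2.04) and KRT86 (1.18) higher and KRT78 (-3.82) and KRT9 lower, KRT9 at 1 to 5 counts per library in PEO4 B at 2 h. At 6 h 1 was higher, KRT6B (1.6033), beside 5.42%, and 7 were lower, beside 9.34%, led by KRT13 (-5.83) and KRT78 (-4.08).

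Keratin filaments are anchored at desmosomes, and 17 of 20 listed desmosomal and linker genes were tested in each table. In PEO4 A against PEO1 A 2 were higher, DSC1 (2.05) and DSC3 (1.59), beside 12.6% of all genes, and 2 lower, PKP1 (-1.70) and DSG3, beside 13.1%. In untreated PEO4 B 5 were higher, beside 12.2%, and 1 lower, beside 12.6%, among them DSC3 (2.00), DSG3 and PKP1 (-2.95). DSG3 had at most 14 counts in any library of these groups, so its fold is not given. None of the 17 was called in PEO1 B after PDS at either time, beside 7.57% of all genes at 2 h and 8.13% at 6 h. By adjusted p alone 8 passed at each time, beside 52.6% and 53% of all genes (8 and 9 at an unadjusted p under 0.05). In PEO4 B 5 were called lower and 0 higher at both 2 h and 6 h, beside 11% and 16.3% of all genes called lower and 6.4% and 6.26% called higher. Not every gene of the list fell. DSG2 was not called, but its libraries went from 284.1 to 304.4 CPM untreated to 396.1 to 423.6 CPM at 2 h and 463.4 to 464.6 CPM at 6 h. PPL, the periplakin gene, whose product links keratins to the cell membrane, went from 416.3 ± 92.5 CPM to 111.3 ± 2.56 CPM at 2 h and 94.7 ± 1.24 CPM at 6 h (log2 fold changes -1.90 and -2.14, adjusted p = 5.234e-11 and 8.267e-12). The desmosomal plaque gene PKP1 fell at 2 h (-1.99, 0.903 against 3.54 CPM), and the desmosomal cadherin DSC1 at 6 h (-2.72). In PEO4 B DSC1 had only 30 to 68 counts per library untreated, 42 to 53 at 2 h and 12 to 14 at 6 h, so its folds are uncertain. The medians in PEO4 B were -0.51 and -0.58, beside 0 and -0.028 over all genes. PLEC, which encodes plectin, was the 1 gene called higher between 6 and 2 h in PEO4 B (1.10), beside 2.27% of all genes. DSC1 was the 1 called lower (-1.73), beside 9.71%. The interaction was called lower for 5 at 2 h and 4 at 6 h, beside 4.92% and 9.34% of all genes, led by PPL (-2.05 and -2.11) with PKP1 (-1.72) at 2 h and DSC1 (-2.63) at 6 h.

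Of 15 other intermediate filament genes, 10 were tested in the A pair and 11 in the B pair. VIM, the mesenchymal filament gene, was at 300.7 ± 18.3 CPM in PEO1 A and 0.607 ± 0.337 CPM in PEO4 A (log2 fold change -9.05, adjusted p = 4.125e-10). NEFM was also lower, at 0.149 CPM in PEO4 A against 0.972 CPM in PEO1 A, too near 0 for its fold to be given. In all 1 gene was higher and 5 lower, beside 12.6% and 13.1% of all genes. The higher gene, DES, had 15 to 22 counts per library in PEO4 A and 0 to 8 in PEO1 A. In the B pair NES was higher (1.74), and 5 genes were lower, beside 12.2% and 12.6%, among them INA (-3.12) and NEFM. NEFM had 0 to 1 counts per library in PEO4 B and 10 to 14 in PEO1 B, so no fold is given. VIM was not called between the untreated B lines, so its gap in the A pair did not recur as a call. None of the 11 was called after PDS in PEO1 B, beside 7.57% of all genes at 2 h and 8.13% at 6 h. By adjusted p alone 3 passed at each time, beside 52.6% and 53% of all genes (3 and 4 at an unadjusted p under 0.05). In PEO4 B VIM rose at 2 h (3.33, adjusted p = 2.482e-05) and 6 h (2.05, adjusted p = 0.001225), from 13.1 ± 12.9 CPM to 129.4 ± 22.7 and 53.2 ± 10.2 CPM, and its untreated libraries spread from 3.18 to 27.7 CPM. BFSP1 was the other gene that rose at 2 h, from 3 to 5 counts per library to 15 to 24, while INA rose (1.76) and GFAP fell (-1.18) at 6 h. This made 2 higher and 0 lower at 2 h, beside 6.4% and 11% of all genes. At 6 h 2 were higher and 1 lower, beside 6.26% and 16.3%. Between 6 and 2 h INA rose (2.48), beside 2.27% of all genes called higher, and VIM fell (-1.28), beside 9.71% called lower. The interaction was called for VIM (4.22) and INA (-1.45) at 2 h, beside 6.1% of all genes called higher and 4.92% lower. At 6 h it was called for VIM (2.74) and INA (1.13), beside 5.42% called higher. The medians of this list ranged from -1.17 between the A lines to 0.11 in PEO4 B at 6 h.

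Markers of other cell types moved with some of these results. The 6 genes fixed for stratified squamous epithelium summed to 56.4 to 68.1 CPM in untreated PEO4 B, 49.3 to 58.6 CPM at 2 h and 54.8 to 59.96 CPM at 6 h, while TP63, the basal-cell transcription factor among them, was at 5.37 ± 0.957, 0.141 ± 0.0548 and 0.0758 ± 0.0789 CPM (SD, n = 3). IVL, which encodes an envelope protein, was there at 22.1 ± 8.17, 8.53 ± 1.25 and 12.5 ± 1.24 CPM. KRT10, the largest part of the sum in these cells, was at 33.6 ± 7.47, 43.4 ± 4.52 and 44.3 ± 1.33 CPM. Of the 5 tested genes of the list, 3 were called lower in PEO4 B at 2 h and 2 at 6 h, beside 11% and 16.3% of all genes. Those called higher were 0 at each time, beside 6.4% and 6.26%. In PEO1 B, where KRT5 was not called, the list summed to 88.9 to 109 CPM untreated, 169 to 178.1 CPM at 2 h and 162.7 to 185.9 CPM at 6 h. IVL rose in PEO1 B from 44.97 ± 7.96 to 96.5 ± 1.53 and 102.3 ± 4.87 CPM (log2 fold changes 1.10 and 1.19, adjusted p = 0.0002916 and 0.0001516), and TP63 was at 6.74 ± 0.854, 6.79 ± 0.284 and 7.59 ± 0.359 CPM. KRT14, the usual type I partner of KRT5, reached at most 0.615 CPM in any library. The 8 mesenchymal and mesothelial genes summed to 611.4 to 782.4 CPM in untreated PEO4 B and 169.1 to 214.9 CPM at 6 h, and the 3 endothelial genes to 1.31 to 2.72 CPM and 0.0610 to 0.191 CPM. At 6 h 4 of the 7 tested mesenchymal and mesothelial genes were called lower, beside 16.3% of all genes, and 2 higher, beside 6.26%. VIM was among the higher, at 13.1 CPM untreated and 53.2 CPM at 6 h, so the sum does not describe each member. The 5 leukocyte genes summed to 0.755 to 6.27 CPM over all libraries, nearly all of it CD14. The part of such differences in the keratin results was not tested.

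The genes closest in pattern were found among 10168 genes of the B pair, by the root mean square difference between centred log2 CPM means over the 6 groups. KRT17 was closest to RSAD2 (0.189) and OASL (0.196), both known as interferon-induced genes. KRT5 was closest to OXTR (0.386) and GABBR2 (0.502), KRT6A to KCTD1 (0.213) and ITGBL1 (0.352), and KRT81 to SHANK2 (0.341) and DGKI (0.41). KRT7 was near CUL4A (0.0945) and CRELD2 (0.104), KRT19 near RAB31 (0.157), and KRT80 near RNF187 (0.0646) and SOD2 (0.0757). KRT8 lay nearest to KRT18 (0.0909), which overlaps it, and after that to ETV4 (0.1) and DNAJC6 (0.133), and KRT18 to MISP (0.106) and DNAJC6 (0.122). KRT7 lay nearest to KRT7-AS (0.0442), with which it shares sequence.

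Since PDS binds G4s, the G4 motif was counted over the whole span of each member on both strands of the genome. The median over 16328 genes was 0.137 motifs per kilobase. KRT6A held none and KRT23 had 0.134 per kilobase, under that median, and KRT5, with 1 motif (0.172 per kilobase), and KRT18 (0.247) lay above it. KRT81 (0.534), KRT17 (0.584), KRT8 (0.589), KRT19 (0.639), KRT80 (0.652) and KRT7 (0.663) lay further above it. A motif in the sequence is a description and does not show that a G4 forms there, and no test of the members' response against it was made.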

How the data were processed

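The files deposited hold raw, unscaled counts for each gene, in a table of 6 libraries for the A pair and another of 18 for the B pair. Polyadenylated RNA was sequenced as paired-end reads of 150 bases. The authors checked the reads with FastQC and trimmed them with fastp before alignment by STAR (hg38), and used DESeq2 for differential expression. The submitters' processing notes also name featureCounts, and its annotation and strand setting are not given in the sources used here. Lines without readable counts, 2 and 1 in the tables, were left out, and all columns of per-sample values were mapped to samples by the names in the labels.

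The main test came from edgeR 4.0.16 (R 4.3.3). Its filterByExpr (minimum count 10, minimum total 15) kept 15882 genes of the A table and 17020 of the B table, TMM set the library scale, and all libraries of a table entered 1 quasi-likelihood fit, robust, with 1 mean for each group (common dispersion 0.0129 and 0.00502, residual degrees of freedom 4 and 12). P-values were adjusted by Benjamini-Hochberg over all genes tested. The SE given with a log2 fold change was derived from the test, as its size divided by the square root of the F statistic. Calls needed an adjusted p under 0.05 together with a log2 fold change beyond 1 in either direction, the study's threshold read on the log2 scale. The members, the other lists and the naming rule (all members, the 2 largest rises and falls called per list, the 2 nearest patterns) were chosen with earlier results of these data known. The labels say that replicates were biological. Pairs of replicates differed beyond sampling noise (chi-square per degree of freedom 2.13 to 52.1 over 24 pairs), so none was counted as a duplicate. Library totals of 18699929 to 63882077 counts put the members other than KRT23 well above counting error. In data simulated at the libraries' means and totals with 200 genes changed 4-fold, 98% were recovered among 15661 genes for PEO4 A against PEO1 A and 95.5% among 16576 genes for PEO4 B at 6 h against untreated, each with 2 false calls. The simulated spread followed the fitted trend alone and the change lay well beyond the threshold. These data therefore do not measure recovery of calls near the threshold, such as those of KRT17 and KRT81 in PEO4 B at 2 h.

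Alternatives were library totals, DESeq2 size factors and upper-quartile scaling, the DESeq2 1.42.0 Wald test, other filters, the adjusted p alone, a term for the replicate number, fits of only the groups compared, and each library left out in turn. Levels per kilobase used the GENCODE release 44 canonical transcript, with the longest transcript as the alternative. G4 peaks and accessibility were not analysed here, and 1 gene near KRT19 in pattern and 1 leukocyte marker are not reported here.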

Additional observations from a re-analysis of the deposited data

Results flagged for a closer look

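The response to PDS differed between PEO4 B and PEO1 B in 8 tests over the 9 tested keratins and both times, by the interaction in edgeR (log2 response of PEO4 B minus that of PEO1 B). At 2 h KRT5 gave -4.0756 (adjusted p = 1.003e-06), KRT6A -2.2573 (adjusted p = 0.0005068), KRT8 -1.3496 (adjusted p = 2.543e-08), KRT18 -1.3327 (adjusted p = 2.497e-06) and KRT81 2.3881 (adjusted p = 9.101e-07). At 6 h KRT5 gave -2.9005 (adjusted p = 1.139e-05), KRT19 -1.3155 (adjusted p = 3.11e-05) and KRT81 2.1406 (adjusted p = 1.874e-06). Untreated libraries of both lines were shallower and held more ribosomal RNA than treated ones, and the part of this in the responses was not tested.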

How the results depend on the processing

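Of 161 counts of called members recomputed under the alternatives, 149 stayed within 1.5 times the main count. The other 12 were as follows. With the adjusted p alone, 6 and 5 members passed in PEO1 B at 2 h and 6 h, 9 and 6 in PEO4 B at 2 h and 6 h, 8 in PEO4 B between 6 and 2 h, and 7 in the interaction at 6 h. In PEO4 B at 2 h the count was 2 under library totals, upper-quartile scaling and without its second 2 h library, so leaving out libraries gave 2 to 4. In PEO4 B at 6 h it was 1 with only the groups compared and without the first untreated library, and in PEO1 B at 2 h it was 2 without the third untreated library. Under library totals the median over all genes shifted too, to -0.173 in PEO1 B at both times, and -0.128 and -0.188 in PEO4 B at 2 h and 6 h.

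Of 1359 member log2 fold changes, 1318 kept their direction and side of the threshold, 10 lost and 8 gained a call and 23 turned sign, all of them with a main value of at most 0.4286 in size, and the cause was not tested. Under library totals these were KRT5 (-0.0946) and KRT80 (-0.0928) in PEO1 B at 2 h, KRT80 (-0.0457) at 6 h and KRT18 (-0.1464) in PEO4 B at 6 h. Under upper-quartile scaling they were KRT5 (-0.0265), KRT80 (-0.0240) and KRT18 (-0.0998) in the same comparisons at 2 h and, for KRT18, 6 h. KRT18 in PEO4 B at 6 h also turned with DESeq2 size factors (-0.0069), the DESeq2 Wald test (-0.0068), a filter of 1 CPM in 3 libraries (-0.0189) and only the groups compared (-0.0073). Leaving out 1 library in turn, KRT18 between the untreated B lines ranged from -0.2794 to 0.0664, KRT5 in PEO1 B at 2 h from -0.0164 to 0.1328, KRT7 in PEO1 B between 6 and 2 h from -0.0887 to 0.0008, KRT8 and KRT18 in PEO4 B at 6 h from -0.2805 to 0.0043 and from -0.1365 to 0.2090, and KRT81 in PEO4 B between 6 and 2 h from -0.2335 to 0.0115. In the interaction KRT17 and KRT19 at 2 h ranged from -0.1600 to 0.2900 and from -0.0446 to 0.2122, and KRT6A at 6 h from -0.6974 to 0.0256.

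Replicate numbers did not pair the samples: same-numbered deviations correlated at -0.158 to 0.134 in the B table and -0.0429 to 0.0228 in the A table. With the replicate number as a block 6 members were called in PEO4 A against PEO1 A, as without it, and the block moved no other count of members. With the longest transcript in place of the canonical one the ratio of summed type II to type I members was 0.352 in PEO4 A and 2.91 in untreated PEO1 B. Depth limits KRT23 alone among the members.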

Other observations

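MUC16, which encodes the CA125 antigen of ovarian carcinoma, was lower after PDS in both B lines, by log2 fold changes of -2.29 and -2.59 in PEO1 B at 2 h and 6 h (adjusted p = 0.001169 and 0.0004957) and -3.40 in PEO4 B at 6 h (adjusted p = 3.61e-05, edgeR), while -1.05 in PEO4 B at 2 h missed the threshold (adjusted p = 0.05504). In PEO1 B it held 413.4 ± 157.4 CPM untreated, 84.6 ± 21.4 CPM at 2 h and 68.7 ± 20.6 CPM at 6 h (SD, n = 3). In PEO4 B it held 544.8 ± 282.6, 263.2 ± 156.1 and 51.6 ± 7.74 CPM, with untreated libraries from 375.1 to 871 CPM. The gene was chosen after its values were seen. TP63 was at 0.267 ± 0.227 CPM in PEO1 A and 5.31 ± 1.45 CPM in PEO4 A, the reverse of the order of KRT5 in that pair.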
